A study of Mus musculus with 74 samples.

Results

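Among 74 single cells sorted from the mouse pro-epicardial organ at embryonic day 9.5, cells with high mitotic transcripts were set against cells with low mitotic transcripts, after muscle-like cells were left out. Counts were scaled to the same total in each cell (CPM, the count of a gene per 1000000 counts of the cell), and the 51 cells with less than 500 CPM of Actc1, the cardiac alpha-actin gene, were kept as non-muscle cells. In each cell it was counted how many of Top2a, Ccnb1, Cdk1, Ube2c and Ccna2 reached 100 CPM. The cells were thus chosen by their measured values of these 6 genes. The name non-muscle refers to the Actc1 limit alone. The 33 cells with 4 or 5 of the genes at that level are called mitotic-high and the 12 cells with 0 or 1 mitotic-low, so that 45 cells were compared. The 6 cells with 2 or 3 were left between the groups. All cells came from C57BL/6 embryos that carried Tbx18Cre and the mTmG reporter, a dual-colour membrane reporter whose colour switches after Cre has acted. The label therefore records past as well as present activity of the Tbx18 promoter that drives Cre. The libraries were full-length polyA libraries made with SMARTSeq V4 and Nextera XT. No embryo, litter or plate is named in the labels, so the cells count as 1 sample. Groups of cells are therefore described without a test, and each ± is the SD across cells.

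The pro-epicardial organ forms briefly at the venous pole of the looping heart, and its mesothelial cells give rise to the epicardium. In a dividing cell, genes for S phase are transcribed first and genes for G2 and mitosis later, and many of the mitotic transcripts and proteins are removed after division. The DREAM and MuvB complexes act on many G2 and mitosis promoters through a short element named the cell cycle homology region (CHR), often beside CCAAT boxes bound by NF-Y, whereas E2F factors act on many S phase promoters.

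The 5 genes that chose the cells encode a DNA topoisomerase (Top2a), the mitotic cyclin B1 (Ccnb1), its kinase (Cdk1), the ubiquitin-conjugating enzyme of the anaphase-promoting complex (Ube2c) and cyclin A2 (Ccna2). Ccnb1 averaged 626 ± 465 CPM in mitotic-high cells and 12.9 ± 24.6 CPM in mitotic-low cells (SD, n = 33 and 12). Top2a averaged 491 ± 313 CPM in mitotic-high cells and 23.2 ± 30.5 CPM in mitotic-low cells. Cdk1 was the least separated, at 425 ± 213 CPM in mitotic-high cells and 68.3 ± 63.4 CPM in mitotic-low cells. Being the basis of the choice, these values are no finding.

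Most cells lay at the ends of the scale. Of the 51 non-muscle cells, 28 had all 5 genes at 100 CPM, 5 had 4, 4 had 3, 2 had 2, 2 had 1 and 10 had 0. Mitotic-high cells were 64.7% of the non-muscle cells (exact Clopper-Pearson 95% interval 50.1% to 77.6%) and mitotic-low cells 23.5% (12.8% to 37.5%). Such intervals treat cells as independent draws and do not cover variation between embryos. At the upper edge, the mitotic-high cell with the lowest single value had 9.44 CPM of Top2a, beside 101 CPM of Ccnb1, 166 CPM of Cdk1, 156 CPM of Ube2c and 481 CPM of Ccna2. A cell just outside had 3 genes past the limit, with 37.3 CPM of Ccnb1 and 95.3 CPM of Ube2c. At the lower edge, the 2 mitotic-low cells with 1 gene owed it to Cdk1, at 223 and 124 CPM. At the muscle limit, the last cell kept had 420 CPM of Actc1 and the first left out 530 CPM. Of the 23 cells left out, 10 had 4 or 5 of the genes and 10 had 0 or 1.

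**Figure D1:**
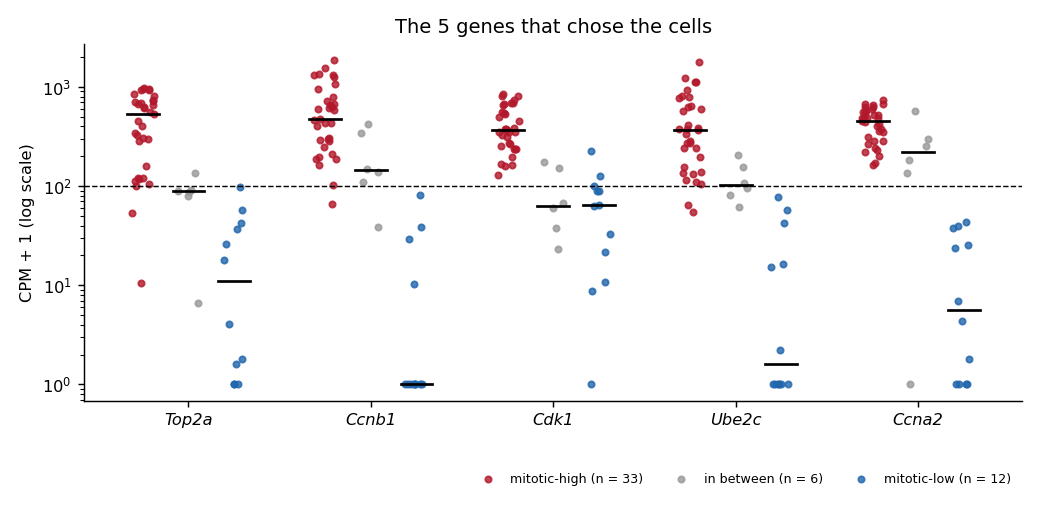
CPM + 1 (log scale) of the 5 genes that chose the cells, 1 point per cell, for 33 mitotic-high, 6 in-between and 12 mitotic-low non-muscle cells. Bars are medians and the dashed line is the limit of 100 CPM. The separation follows from the choice, and only Cdk1 passes the limit in any mitotic-low cell.

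Taken whole, the groups were of like depth but not of like cell type. Total counts ran from 216177 to 2618538 in mitotic-high cells (median 915732) and from 237278 to 2046584 in mitotic-low cells (median 705126). A median of 8212 genes had 5 or more counts in mitotic-high cells, against 7571 in mitotic-low cells. Mitochondrial transcripts took a median of 1.99% of counts in mitotic-high cells and 2.06% in mitotic-low cells. Lhx9, a LIM-homeobox gene used here as a marker of the epicardial-type cells, had 5 or more counts in 24 of 33 mitotic-high cells (72.7%, interval 54.5% to 86.7%) and in 3 of 12 mitotic-low cells (25.0%, 5.49% to 57.2%). The comparison was therefore repeated within the Lhx9-negative cells, 9 of them mitotic-high and 9 mitotic-low, and within the Lhx9-positive cells, 24 mitotic-high and only 3 mitotic-low. In the Lhx9-positive part depth differed, with a median of 810674.5 counts and 8184 genes in mitotic-high cells. The 3 mitotic-low cells there had medians of 386200 counts and 7035 genes. Counts by list and selected genes are given for these parts too. The part of this difference in cell makeup in each result was not tested.

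Most defining genes of the labelled tissue were detected in both groups. Tbx18, the gene whose promoter drives Cre, had 5 or more counts in 32 of 33 mitotic-high and 11 of 12 mitotic-low cells. The epicardial transcription factor genes Wt1 (31 and 11 cells) and Tcf21 (32 and 11 cells) were as widespread. The endothelial gene Cdh5 and the hepatoblast gene Hnf4a were at 0 counts in all non-muscle cells. Other endothelial markers were present. Tek had 5 or more counts in 29 mitotic-high and 8 mitotic-low cells, at means of 58.7 and 51.0 CPM. Pecam1 had them in 27 and 10 cells, at 14.7 and 20.1 CPM. Of 18 endothelial markers 7 had enough counts to be compared, and 0 were called. Albumin transcripts (Alb) reached 5 counts in 8 mitotic-high and 2 mitotic-low cells, at means of 8.93 ± 26.6 CPM and 4.22 ± 12.8 CPM. The leukocyte gene Ptprc reached 5 counts in 1 mitotic-high and 0 mitotic-low cells. Of the same list, Cd68 reached them in 6 and 1 cells, at means of 1.93 and 0.811 CPM. Runx1 reached them in 3 and 4 cells, at 1.62 and 7.33 CPM. Of 12 leukocyte markers 2 had enough counts to be compared, and 0 were called. Summed over the 6 erythroid markers compared, CPM ran from 0 to 2296 in mitotic-high cells (median 19.5) and from 0 to 568 in mitotic-low cells (median 28.1). Some cardiomyocyte markers were widespread despite the Actc1 limit. Tnni1 and Myl4 had 5 or more counts in all 51 non-muscle cells. Tnni1 averaged 971 ± 476 CPM in mitotic-high and 1178 ± 661 CPM in mitotic-low cells, and Myl4 395 ± 409 and 490 ± 381 CPM. Myh7 and Pln reached 5 counts in 0 of the 51 cells and Nkx2-5 in 1.

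Beyond the 5 genes, the cells differed widely in mitosis genes and in a smaller share of other genes. Of 11764 genes with 5 or more counts in at least 5 non-muscle cells, a gene was called higher or lower when its mean CPM and its median of CPM + 1 both differed at least 2-fold the same way. By this rule of size 585 genes (4.97%) were higher and 420 (3.57%) lower in mitotic-high cells. The 574 known cell cycle genes among them, taken from written lists and name patterns, held 180 higher (31.4%) and 11 lower (1.92%). The 11190 other genes held 405 higher (3.62%) and 409 lower (3.66%), near equal in number. The median log2 ratio over all genes compared was -0.02. The calls rest on the rule alone: with the condition on the mean only, 1126 genes (9.57%) were higher and 1047 (8.90%) lower.

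**Figure D2:**
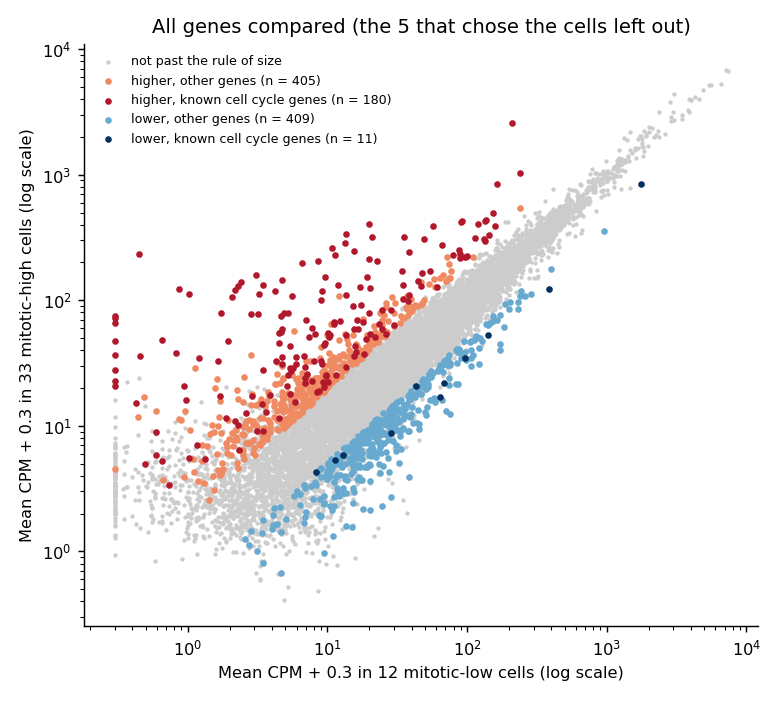
Mean CPM of each compared gene in 33 mitotic-high cells (vertical) against 12 mitotic-low cells (horizontal), both with 0.3 added and on log scales. Coloured points are genes past the rule of size, with the 180 higher known cell cycle genes in dark red and the 405 higher and 409 lower other genes in light colours. The column of red points at the left edge holds genes with no count in any mitotic-low cell.

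Most calls kept their sign within the Lhx9-negative cells. The Lhx9-negative and Lhx9-positive cells are parts of the groups that made the calls, so agreement in sign is in part built in. Of the 180 known cell cycle genes called higher, 170 (94.4%) were also called higher in the Lhx9-negative cells, where 839 of 11709 genes were (7.17%), and none of the 180 had the opposite sign there. Of the 11 known genes called lower, 7 (63.6%) were also called lower there and 0 had the opposite sign. Of the 405 other higher genes 240 (59.3%) were also called there and 30 had the opposite sign. Of the 409 other lower genes 243 (59.4%) were also called lower there, where 692 genes were (5.91%), and 9 had the opposite sign. Among the Lhx9-positive cells, in which 11.6% of genes were called higher and 5.53% lower on only 3 mitotic-low cells, 44 of the 405 and 127 of the 409 had the opposite sign.

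Genes of G2 and mitosis made up most of the known genes that were higher. Of 224 compared members of the G2 and mitosis list, 128 were higher and 1, the phosphatase gene Cdc14a, was lower at 3.95 CPM against 7.98 CPM. The level of the list, the mean of log2(CPM + 1) over members, was 5.81 ± 0.53 in mitotic-high cells and 3.51 ± 0.49 in mitotic-low cells. The 6 in-between cells averaged 4.59, between the groups. In Lhx9-negative cells the level was 6.18 in mitotic-high and 3.41 in mitotic-low cells. The list shares its phase with the 5 genes that chose the cells and is no independent evidence.

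The largest ratios belonged to genes of spindle, midzone and chromosome segregation that had few or no counts in mitotic-low cells. Gtse1, a G2 and S phase-expressed microtubule regulator, averaged 74.7 ± 52.2 CPM in mitotic-high cells and had 0 counts in all 12 mitotic-low cells. Against a floor of 3 counts over the mitotic-low cells, or 0.271 CPM, it was at least 275-fold higher. Kif23, a kinesin of the central spindle, averaged 72.0 ± 70.5 CPM in mitotic-high cells, likewise with 0 counts in mitotic-low cells, which made it at least 266-fold higher. The separase gene Espl1 (at least 244-fold), the kinetochore gene Ska1 (at least 174-fold), the histone kinase gene Haspin (at least 133-fold), Depdc1b (at least 102-fold), Parpbp (at least 82.9-fold) and the spindle pole gene Aspm (at least 75.3-fold) shared that absence. Prc1, which bundles midzone microtubules, had 8938 counts over the mitotic-high cells and 1 count over the mitotic-low cells. That is a pooled ratio of 3004 with a counting interval of 539 to 118683. Depdc1a had 1199 counts over the mitotic-high and 3 over the mitotic-low cells, a pooled ratio of 134 (45.9 to 652). Reads carry no molecular identifiers, so such intervals cover counting error only.

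Among abundant mitosis genes, Plk1, a kinase of mitotic entry and exit, had 12.3 CPM in its lowest mitotic-high cell, a median of 250 and a highest value of 977 CPM, against 0, 0 and 65.2 CPM in mitotic-low cells. Cdc20, an activator of the anaphase-promoting complex, had 7.20, 344 and 1201 CPM in the lowest, median and highest mitotic-high cell and 0, 11.5 and 54.4 CPM in mitotic-low cells. The groups overlapped slightly for both. Kpna2, an importin alpha, averaged 850 ± 701 CPM in mitotic-high cells and 164 ± 94.2 CPM in mitotic-low cells.

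Hmgb2, a DNA-bending high mobility group protein, ran from 546 to 1752 CPM in mitotic-high cells (median 990) and from 54.9 to 415 CPM in mitotic-low cells (median 256). It was 1 of only 3 genes (0.0255% of those compared) whose values did not overlap between the groups, the others being Ska1 and Prc1, and the only one of the 3 present in every mitotic-low cell. It was also the only one of 23 high mobility group and linker proteins past the rule (4.35%), a share near the 4.97% of all genes called higher. Hmgb1 averaged 2028 ± 320 CPM in mitotic-high cells and 1723 ± 389 CPM in mitotic-low cells. In Lhx9-negative cells Hmgb2 averaged 1306 CPM in mitotic-high and 235 CPM in mitotic-low cells.

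Of 25 compared histone genes, 11 were higher, 1 was lower and the others did not pass the rule. In Lhx9-negative cells 13 were higher and 1 lower. Hist1h2ap had 75.4 CPM in its lowest mitotic-high cell, a median of 2774 and a highest value of 6292 CPM, against 30.4, 200 and 461 CPM in mitotic-low cells. The linker histone gene H1f0 averaged 493 ± 364 CPM in mitotic-high cells and 152 ± 130 CPM in mitotic-low cells, and H2afx, the variant phosphorylated at DNA breaks, 315 ± 131 and 114 ± 69.3 CPM. Hist1h2bc was the one that was lower, at 34.4 ± 51.0 CPM in mitotic-high cells and 95.6 ± 71.9 CPM in mitotic-low cells. Replication-dependent histone genes are near-identical copies whose messages mostly lack polyA tails, so the assignment of counts to single copies in polyA libraries is uncertain.

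Of 119 compared S phase genes, 22 were higher (18.5%) and 4 lower (3.36%) in mitotic-high cells, where 4.97% and 3.57% of all genes compared were. The lower share is near that of all genes, so the lower members are described singly and not as a result about the list. The level of the list was 5.38 ± 0.59 in mitotic-high cells and 4.74 ± 0.91 in mitotic-low cells. In Lhx9-negative cells 24 were higher and 10 lower, where 7.17% and 5.91% of all genes were. The higher ones over all cells included the ribonucleotide reductase subunit gene Rrm2 (436 ± 337 CPM in mitotic-high cells, 137 ± 167 CPM in mitotic-low cells) and repair genes such as Palb2, Fanca and Fancd2. Over all cells 4 were lower, of which Orc1, E2f1 and Ung were also called lower in Lhx9-negative cells. Cdc6, which loads the replicative helicase, averaged 53.0 ± 57.9 CPM in mitotic-high cells and 141 ± 132 CPM in mitotic-low cells. Its partner in origin licensing, Orc1, averaged 20.3 ± 20.4 CPM in mitotic-high and 42.7 ± 32.8 CPM in mitotic-low cells. E2f1, a transcription factor of the G1/S transition, averaged 21.7 ± 23.8 CPM in mitotic-high and 68.3 ± 69.3 CPM in mitotic-low cells, and the uracil-DNA glycosylase gene Ung 16.7 ± 28.6 and 63.7 ± 80.2 CPM.

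The helicase subunit Mcm6 had 61.3 CPM in its lowest mitotic-high cell, a median of 281 and a highest value of 1265 CPM, against 217, 657 and 990 CPM in mitotic-low cells. The groups overlapped and the ratio of means was 0.67, short of the rule. All 12 mitotic-low cells thus held Mcm6 transcripts, and all held Mcm7 transcripts, at 158 to 1100 CPM.

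Of the 37 compared cyclin D, inhibitor and exit genes 3 were lower (8.11%) and 4 higher (10.8%), beside 3.57% and 4.97% of all genes compared. The list level was 5.08 in mitotic-high and 4.75 in mitotic-low cells. Among the 3 lower ones, Ccnd2, a D-type cyclin, had 0 CPM in its lowest mitotic-high cell, a median of 103 and a highest value of 436 CPM, against 140, 393 and 632 CPM in mitotic-low cells. The groups overlapped, but every mitotic-low cell lay above the mitotic-high median. Cdkn1c, an imprinted inhibitor of cyclin-dependent kinases, averaged 847 ± 418 CPM in mitotic-high cells and 1752 ± 413 CPM in mitotic-low cells, and its lowest mitotic-low cell, at 971 CPM, also lay above the mitotic-high median of 798 CPM. Rb1, the retinoblastoma gene, averaged 5.53 ± 5.68 CPM in mitotic-high and 12.7 ± 9.40 CPM in mitotic-low cells. The 4 higher ones were Cdkn1b, Lin9, Lin54 and Tfdp1, of which Lin9 and Lin54 encode subunits of the MuvB complex. In Lhx9-negative cells 7 members of the list were higher and 3 lower, where 7.17% and 5.91% of all genes were. Ccnd2 was among the lower ones, at 95.8 CPM in mitotic-high and 432 CPM in mitotic-low Lhx9-negative cells. Cdkn1c averaged 980 CPM in mitotic-high and 1746 CPM in mitotic-low Lhx9-negative cells, a ratio of 0.56, and was not called there.

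Promoter windows of the genes differed in the same elements. RefSeq windows (GRCm38.p6) from 250 bases before to 50 after the start were searched on both strands for TTTGAA (CHR), CCAAT (the NF-Y box) and TTTGGCG or TTTCCCG (E2F), none of which contains another, though adjoining matches may share an end letter. A match is a description of letters and not a site. TTTGAA was in 67 of 130 windows of known cell cycle genes called higher (51.5%), in 49 of 293 of other genes called higher (16.7%), in 24 of 309 of other genes called lower (7.77%) and in 1034 of 9056 of all genes compared (11.4%). Known cell cycle genes that were not called held it in 50 of 295 windows (16.9%). CCAAT was in 63.1% of windows of known genes called higher, 37.2% of other genes called higher, 39.8% of other genes called lower and 39.7% of all compared. E2F letters were most frequent in known genes that were not called, at 24.4%, against 14.6% in known genes called higher and 8.72% in all compared. Over all 27025 windows in the reference, TTTGAA was in 18.1%, CCAAT in 37.9% and the E2F letters in 4.98%.

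**Figure D3:**
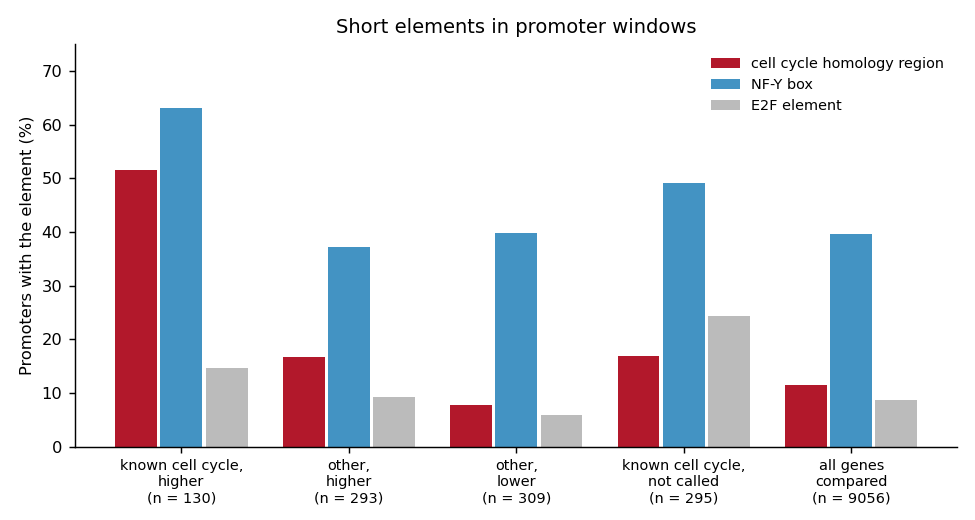
Percentage of RefSeq promoter windows that hold each element, for 5 sets of genes with the number of windows under each. The cell cycle homology region reaches 51.5% in known cell cycle genes called higher, against 16.7% in other genes called higher and 11.4% in all genes compared.

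The windows of the known gene Kif23 and of 3 of the 5 other genes with the largest ratios are printed to show where the letters fall. All were chosen for printing because they hold TTTGAA, after their matches were seen. Each runs 5′ to 3′ on the gene's own strand, with TTTGAA or its reverse complement and CCAAT or its reverse complement in capitals.
Kif23 (chr9:61946750-61947049, minus strand): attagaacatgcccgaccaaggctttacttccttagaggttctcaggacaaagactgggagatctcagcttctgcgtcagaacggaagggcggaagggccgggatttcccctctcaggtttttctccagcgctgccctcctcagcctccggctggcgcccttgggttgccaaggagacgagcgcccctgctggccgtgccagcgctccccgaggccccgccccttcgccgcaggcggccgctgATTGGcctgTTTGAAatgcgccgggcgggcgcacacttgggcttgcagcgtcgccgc
Ankle1 (chr8:71405762-71406061, plus strand): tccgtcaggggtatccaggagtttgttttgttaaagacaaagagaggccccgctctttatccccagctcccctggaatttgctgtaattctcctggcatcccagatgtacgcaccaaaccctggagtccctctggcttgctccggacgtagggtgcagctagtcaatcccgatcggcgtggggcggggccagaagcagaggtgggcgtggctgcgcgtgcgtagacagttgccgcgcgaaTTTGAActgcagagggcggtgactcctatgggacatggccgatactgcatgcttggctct
Kcnab1 (chr3:64948962-64949261, plus strand): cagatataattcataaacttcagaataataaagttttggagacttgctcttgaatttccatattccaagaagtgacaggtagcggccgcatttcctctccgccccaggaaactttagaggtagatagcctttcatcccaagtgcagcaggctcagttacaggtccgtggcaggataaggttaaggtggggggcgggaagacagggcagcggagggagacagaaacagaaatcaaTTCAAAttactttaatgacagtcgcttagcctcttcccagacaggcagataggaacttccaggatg
Arhgap19 (chr19:41802035-41802334, minus strand): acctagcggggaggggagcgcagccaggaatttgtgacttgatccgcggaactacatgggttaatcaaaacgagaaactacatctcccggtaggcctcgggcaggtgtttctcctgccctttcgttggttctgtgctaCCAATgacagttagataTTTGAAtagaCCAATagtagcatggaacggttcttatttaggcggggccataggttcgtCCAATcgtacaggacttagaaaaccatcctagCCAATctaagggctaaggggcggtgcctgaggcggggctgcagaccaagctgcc
Position 0 is the start, and offsets are those of the first letter of a match. In Kif23 the CHR letters begin at 2 and the CCAAT letters at -7. Ankle1 has CHR letters at -10 and no CCAAT, and Kcnab1 has them at -16 on the reverse strand. The Kcnab1 window lies upstream of the gene span in the annotation used for names (chr3:65109384-65378223), so it belongs to a more distant start. Arhgap19 has CHR letters at -95 with CCAAT boxes at -112, -85, -36 and -4. The windows of Sphk1 and Mxd3, the remaining 2 of the 5, hold none of the letters. Of the 10 known genes named for their ratios, 8 had a window and 7 of those held TTTGAA. Among the other genes named for their ratios, it was in 3 of 11 windows of higher and 2 of 12 windows of lower genes. The lower genes with it were Dkk1 and Zfp772, and the Zfp772 window also held CCAAT.

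Outside the known lists, 145 higher genes met the conditions for naming, a mean of at least 20 CPM, 5 counts in at least 50% of the mitotic-high cells and a ratio past 2-fold without the highest cell. The 15 of largest ratio are described. The lists of known genes are written by hand, so a gene outside them may still have a recorded role in division. Of the 15, 13 were also called higher in Lhx9-negative cells, all but Sphk1 and Scx.

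Ankle1, an endonuclease that acts on chromatin bridges at the midbody, lies at chr8:71406010-71409904. It had 0 CPM in its lowest mitotic-high cell, a median of 23.1 and a highest value of 93.7 CPM, against 0, 0 and 5.31 CPM in mitotic-low cells. It had 5 or more counts in 23 of 33 mitotic-high and 1 of 12 mitotic-low cells, and a ratio of means of 34.4. In Lhx9-negative cells it averaged 35.5 ± 28.9 CPM in mitotic-high and 0.712 ± 1.74 CPM in mitotic-low cells.

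Arhgap19, a GTPase-activating protein, lies at chr19:41766588-41802047. It had 1.20 CPM in its lowest mitotic-high cell, a median of 42.9 and a highest value of 157 CPM, against 0, 0 and 43.5 CPM in mitotic-low cells. The groups overlapped through 1 mitotic-low cell with 5 or more counts, while 30 of 33 mitotic-high cells reached that count. The ratio of means was 10.3. Hyls1, a centriole protein needed for cilium formation, averaged 31.9 ± 32.4 CPM in mitotic-high and 4.07 ± 10.3 CPM in mitotic-low cells. Tbc1d31, a protein of centriolar satellites, averaged 21.3 ± 20.5 CPM in mitotic-high and 3.94 ± 6.73 CPM in mitotic-low cells. As a group, the 48 compared genes of the primary cilium and intraflagellar transport held 1 higher member (Ift80) and 0 lower. The shares over all genes compared were 4.97% higher and 3.57% lower. In Lhx9-negative cells 6 of the list were higher and 3 lower, where 7.17% and 5.91% of all genes were. These few calls are not read as a result about the list.

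Rnf26, a RING-type ligase of the endoplasmic reticulum, lies at chr9:44095631-44113517. It had 0 CPM in its lowest mitotic-high cell, a median of 113 and a highest value of 277 CPM, against 0, 0 and 87.1 CPM in mitotic-low cells. It reached 5 counts in 29 of 33 mitotic-high and 5 of 12 mitotic-low cells, and averaged 110 ± 70.7 CPM in the in-between cells, close to the 109 ± 77.7 CPM of mitotic-high cells. Wwp2, a HECT-type ligase, averaged 52.2 ± 49.1 CPM in mitotic-high and 9.56 ± 15.7 CPM in mitotic-low cells. Mxd3, a dimerisation partner of MAX, averaged 24.2 ± 42.5 CPM in mitotic-high and 2.20 ± 7.21 CPM in mitotic-low cells, with its highest levels in Lhx9-negative mitotic-high cells, at 54.7 ± 69.9 CPM. Mapk12, a p38 kinase, averaged 23.6 ± 29.2 CPM in mitotic-high and 4.52 ± 8.78 CPM in mitotic-low cells.

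Kcnab1, a beta subunit of potassium channels, had 0 CPM in its lowest mitotic-high cell, a median of 28.2 and a highest value of 191 CPM, against 0, 0 and 16.7 CPM in mitotic-low cells. It reached 5 counts in 23 mitotic-high and 2 mitotic-low cells, and its in-between mean was 57.1 CPM. The ratio was 14.2 over all cells, 9.65 in Lhx9-negative and 22.9 in Lhx9-positive cells. The sorting nexin Snx19 and the genes Gm10184, 4930503L19Rik and Ccdc163 had ratios from 5.18 to 6.74.

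The remaining 2 of the 15 were called higher in the Lhx9-positive but not in the Lhx9-negative cells. Sphk1, a sphingosine kinase, averaged 23.3 ± 29.9 CPM in mitotic-high and 1.32 ± 3.00 CPM in mitotic-low cells. Within mitotic-high cells it averaged 30.2 CPM in the Lhx9-positive and 4.75 CPM in the Lhx9-negative cells. Within mitotic-low cells it averaged 3.45 and 0.611 CPM. Its ratio was thus 8.75 in Lhx9-positive and 7.78 in Lhx9-negative cells. Scx, a transcription factor gene of the epicardial list, averaged 64.2 ± 65.2 CPM in mitotic-high and 10.3 ± 28.1 CPM in mitotic-low cells, but 4.24 ± 9.36 and 3.05 ± 9.15 CPM in the Lhx9-negative cells. In Lhx9-positive cells Scx averaged 86.7 CPM in mitotic-high and 31.9 CPM in mitotic-low cells.

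**Figure D4:**
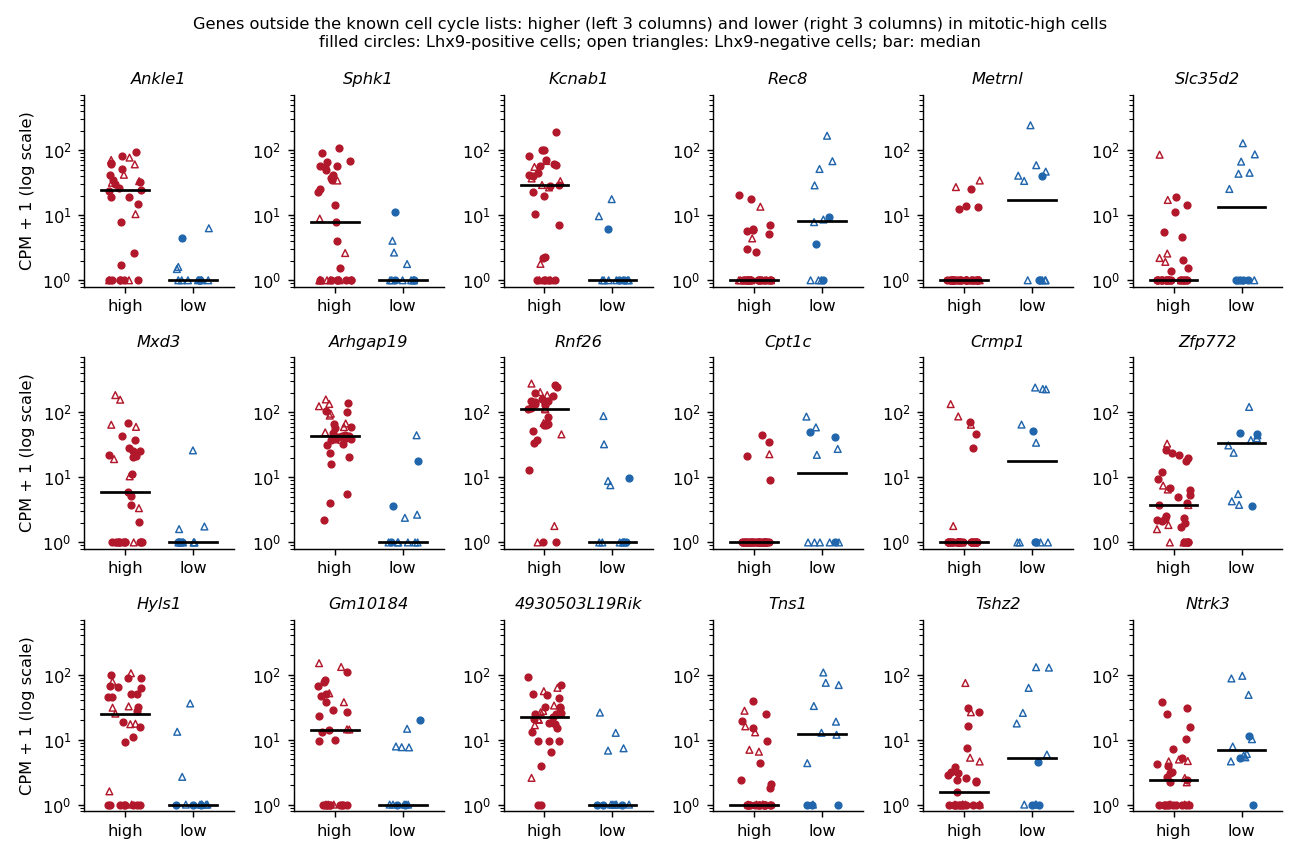
CPM + 1 (log scale) of 18 genes outside the known cell cycle lists in 33 mitotic-high and 12 mitotic-low cells, the 9 of largest ratio in the left 3 columns and the 9 of smallest in the right 3. Circles are Lhx9-positive cells, triangles Lhx9-negative cells and bars medians. Ankle1 stays at or below 5.31 CPM in all mitotic-low cells, while the lower genes are mostly high in some of the Lhx9-negative mitotic-low cells.

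Of the genes outside the lists that were lower in mitotic-high cells, 116 met the conditions for naming, and the 15 of smallest ratio reached 5 counts in 6 to 9 of the 12 mitotic-low cells. All but Cpt1c, a carnitine palmitoyltransferase, were also called lower in the Lhx9-negative cells. Of the 15, 2 were also called lower in the Lhx9-positive cells beside Cpt1c, namely Zfp772 and Ccdc40.

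Rec8, a cohesin subunit known from meiosis, had 0, 0 and 19.2 CPM in the lowest, median and highest mitotic-high cell, against 0, 7.22 and 166 CPM in mitotic-low cells. The ratio of means was 0.09, and the groups overlapped. Zfp772, which encodes a zinc finger protein, was the steadiest of the 15, with 0, 2.73 and 32.1 CPM in mitotic-high cells against 2.59, 33.3 and 121 CPM in mitotic-low cells. Its ratio was 0.16 in Lhx9-negative and 0.21 in Lhx9-positive cells. Zbtb8a, another zinc finger gene, averaged 9.16 ± 10.9 CPM in mitotic-high and 45.2 ± 43.8 CPM in mitotic-low cells. Ccdc40, a gene of motile cilia, averaged 6.80 ± 13.2 CPM in mitotic-high and 30.9 ± 31.0 CPM in mitotic-low cells.

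Metrnl, a secreted factor, averaged 3.64 ± 8.64 CPM in mitotic-high and 38.1 ± 67.8 CPM in mitotic-low cells. Dkk1, a secreted inhibitor of Wnt signalling, had 0, 0 and 533 CPM in the lowest, median and highest mitotic-high cell, against 0, 101 and 640 CPM in mitotic-low cells. It was confined to Lhx9-negative cells among the mitotic-low ones, at 231 ± 201 CPM, and had 0 CPM in the 3 Lhx9-positive mitotic-low cells. In mitotic-high cells Dkk1 averaged 114 ± 177 CPM in the Lhx9-negative and 11.8 CPM in the Lhx9-positive cells. Its ratio in Lhx9-negative cells was 0.49. Tns1 (tensin 1), Tshz2, the neurotrophin-3 receptor gene Ntrk3 and Nkain4 also had the opposite sign in Lhx9-positive cells. Crmp1, a cytosolic phosphoprotein that acts on the cytoskeleton, averaged 12.9 ± 31.3 CPM in mitotic-high and 70.2 ± 99.9 CPM in mitotic-low cells. The nucleotide sugar transporter gene Slc35d2, the ceramide synthase gene Cers4 and Nudt17 had ratios of 0.15, 0.22 and 0.23. By its means Slc35d2 had the opposite sign in Lhx9-positive cells too, at 2.15 CPM in mitotic-high and 0 CPM in mitotic-low cells.

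The nuclear envelope and its pores are taken apart in mitosis. Of 42 compared genes of these structures, 7 were higher (16.7%) and 0 lower, where 4.97% and 3.57% of all genes compared were. The level was 5.83 ± 0.33 in mitotic-high and 5.18 ± 0.48 in mitotic-low cells. Lbr, the lamin B receptor, had 42.3, 150 and 438 CPM in the lowest, median and highest mitotic-high cell and 0, 58.7 and 235 CPM in mitotic-low cells. Of the Y-complex nucleoporins, Nup107 averaged 152 ± 76.8 CPM in mitotic-high and 63.4 ± 70.8 CPM in mitotic-low cells. Nup133 averaged 107 ± 63.9 CPM in mitotic-high and 37.0 ± 26.8 CPM in mitotic-low cells, and Nup37 and Nup160 had ratios of 2.33 and 2.03. Nup35, of the inner ring, averaged 78.5 ± 45.0 and 23.4 ± 38.5 CPM, and Rangap1, the GTPase activator of Ran, which is also on the G2 and mitosis list, 330 ± 136 and 143 ± 128 CPM. In Lhx9-negative cells 3 of the 42 were called higher (Lbr, Nup35 and Rangap1), a share like the 7.17% of all genes called higher there, and the level was 5.66 in mitotic-high and 5.08 in mitotic-low cells.

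Few genes of the growth machinery passed the rule, where 4.97% of all genes compared were higher and 3.57% lower. At these shares a list of 30 to 42 genes would hold few calls, so 0 calls in one says little. None of 83 ribosomal protein genes, 36 proteasome genes, 42 actin cortex genes and 30 heat shock and chaperone genes passed the rule in either direction over all cells, and in Lhx9-negative cells 2 actin cortex genes were higher and 1 lower. The ribosomal protein level was 8.85 ± 0.21 in mitotic-high and 8.84 ± 0.29 in mitotic-low cells. Of 78 nuclear respiratory chain genes 1, Atp5s, was lower. Glycolysis and hypoxia genes had a level of 6.75 ± 0.60 in mitotic-high and 6.99 ± 0.73 in mitotic-low cells with 2 of 33 lower, and 6.35 and 7.04 in the Lhx9-negative cells with 5 lower. Of 37 nucleolar and ribosome assembly genes 1 was higher (Polr1b) and 1 lower (Mycn), and in Lhx9-negative cells 2 were higher and 1 lower. Mycn, a growth-promoting transcription factor gene, averaged 47.3 ± 64.3 CPM in mitotic-high and 128 ± 105 CPM in mitotic-low cells.

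**Figure D5:**
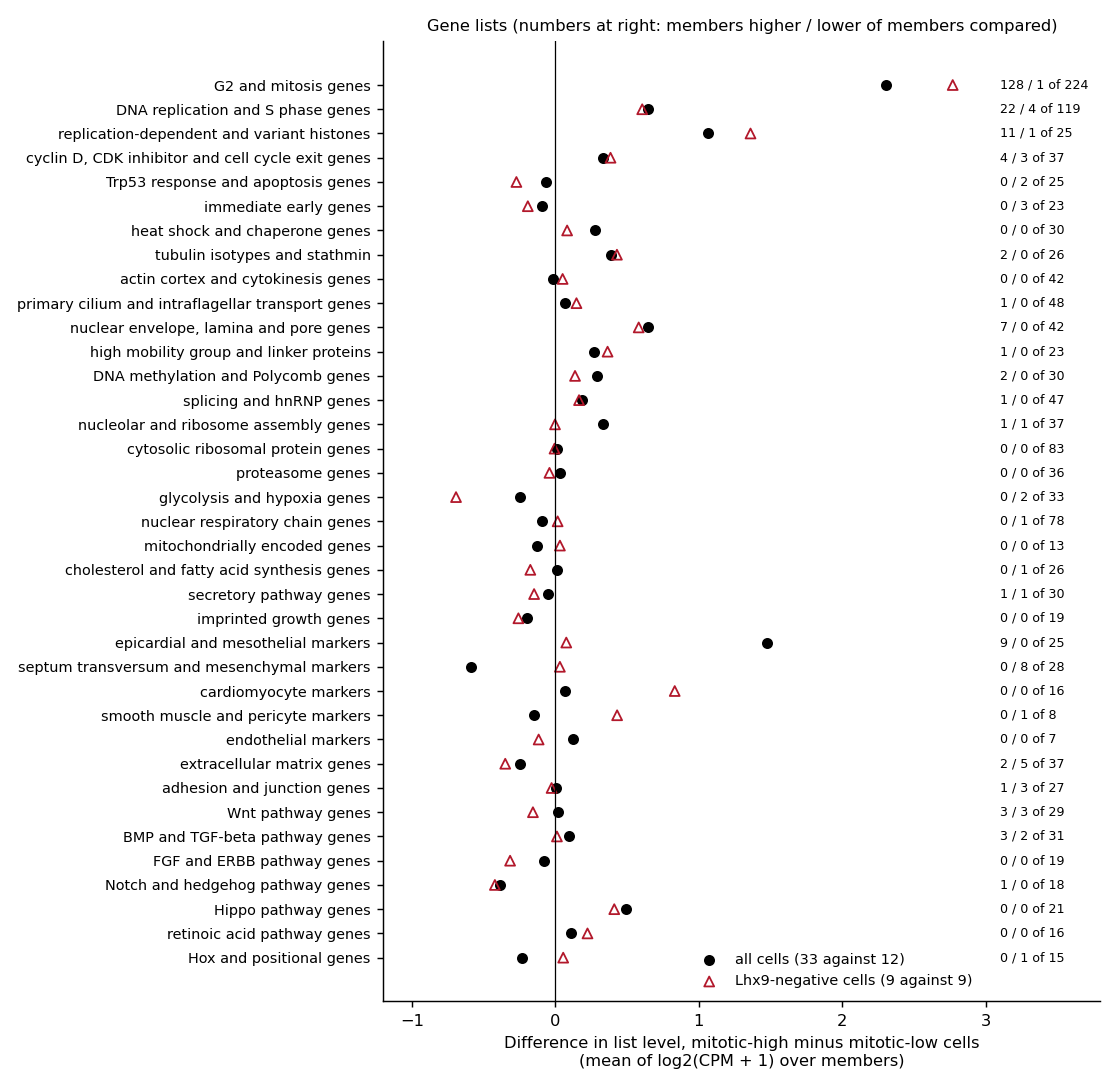
Difference in list level (mean of log2(CPM + 1) over members, mitotic-high minus mitotic-low) for each list with at least 7 compared members. Circles are all cells, triangles Lhx9-negative cells, and the numbers at the right count members higher and lower. The G2 and mitosis list lies at 2.30, and the epicardial list moves from 1.47 over all cells to 0.08 in Lhx9-negative cells.

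Of 25 epicardial and mesothelial markers 9 were higher and 0 lower in mitotic-high cells, where 4.97% and 3.57% of all genes compared were. The level was 5.07 ± 1.69 in mitotic-high and 3.60 ± 1.81 in mitotic-low cells. In Lhx9-negative cells 2 were higher and 1 lower, and the level was 2.75 in mitotic-high and 2.67 in mitotic-low cells, and in Lhx9-positive cells 5.95 and 6.38. Podxl, a sialomucin of mesothelial surfaces, averaged 540 ± 434 CPM in mitotic-high and 239 ± 356 CPM in mitotic-low cells, but 731 and 814 CPM in Lhx9-positive cells. Of 28 septum transversum and mesenchymal markers 8 were lower and 0 higher, among them Des, Pdgfrb, Lhx2 and Snai2, with a level of 4.06 ± 1.12 in mitotic-high and 4.65 ± 1.56 in mitotic-low cells. In Lhx9-negative cells 5 were lower and 1 higher, where 5.91% and 7.17% of all genes were, while that level was 5.39 in mitotic-high and 5.36 in mitotic-low cells. Hlx, Pdgfrb, Twist2 and Snai2 were lower both there and over all cells. The 16 compared cardiomyocyte markers held 0 called over all cells, but 5 higher in Lhx9-negative cells, where the level was 3.58 in mitotic-high and 2.75 in mitotic-low cells.

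Over all genes compared 4.97% were higher and 3.57% lower, and in Lhx9-negative cells 7.17% and 5.91%. Beside these shares, a few members called in a list are not read as a result about its pathway. Of 29 Wnt pathway genes 3 were higher (the ligand Wnt5a, the receptor Ror1 and the nuclear effector Lef1) and 3 lower (the receptors Fzd1 and Ror2, and Dkk1). Lef1 averaged 14.1 ± 14.6 CPM in mitotic-high and 5.55 ± 6.95 CPM in mitotic-low cells and Ror1 20.4 ± 26.3 and 9.73 ± 15.4 CPM, and these 2 were the members higher in Lhx9-negative cells, where 5 of the 29 were lower, Dkk1 among them. Of 31 BMP and TGF-beta genes 3 were higher (Bmp7, Tgfb3 and Id4, an inhibitor of basic helix-loop-helix factors) and 2 lower (the receptors Tgfbr3 and Pdgfrb, the last a PDGF receptor). Id4 averaged 32.2 ± 68.1 CPM in mitotic-high and 6.75 ± 13.5 CPM in mitotic-low cells. Tgfb3 was higher over all cells but lower in Lhx9-negative cells, at 5.05 CPM in mitotic-high and 14.4 CPM in mitotic-low cells, and there 1 member of that list was higher and 4 lower. None of 21 Hippo, 19 FGF and ERBB or 16 retinoic acid pathway genes passed the rule over all cells. In Lhx9-negative cells 2 Hippo genes were higher, and 2 FGF and ERBB genes were higher and 2 lower. Of 25 p53 response and apoptosis genes, Sesn2 and Trp53inp1 were lower, and of 23 immediate early genes, which respond to stimuli that include tissue dissociation, Egr1, Ier3 and Zfp36 were lower. In Lhx9-negative cells 2 members of each of these 2 lists were lower and 0 higher.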

How the data were processed

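Per the labels, RNA from single sorted cells was amplified at full length, and the submitters' processing notes name kallisto, with no version, and the human build hg38, although every identifier is a mouse Ensembl one. The authors deposited whole-number counts per gene and cell, not normalised for depth or length. The sources used here do not say how transcripts were summed to genes. GENCODE M21 (GRCm38) gave symbols and positions for 29857 of 30323 identifiers. The other 466 held 0.357% of counts. No 2 cells had identical values.

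Counts were divided by each cell's total to give CPM, which does not correct for gene length, so levels of different genes are not compared. Cells were chosen by the 5 genes and the Actc1 limit as described. Genes needed 5 counts in 5 non-muscle cells, and the medians had 1 CPM added. There was no test, because all cells form 1 sample. The genes named were the 15 largest and 15 smallest ratios outside the known cell cycle lists, the 10 largest known ones, and the called or 3 most abundant members of each of 41 lists, of which the text gives a selection. The members and lists were chosen with earlier results of these data known. No doublet caller was applied to these single-sorted cells. The comparison was tested on simulated data with known fold changes. Alternatives changed the limits, the scaling (scran 1.30.0, edgeR 4.0.16 TMM), the depth, the filter, the fold and the cell type. Other software was R 4.3.3, Python 3.11.15, pandas 2.3.3, numpy 2.4.6, matplotlib 3.10.9 and SciPy 1.17.1.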

Additional observations from a re-analysis of the deposited data

How the results depend on the processing

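No paired analysis was possible because the cells carry no embryo or batch number. Settings of scaling, filter, depth and cell choice kept the counts of called genes within 1.5 times, except that without the Actc1 limit there were 22 mitotic-low cells and 241 other genes higher. Pooled counts gave 1443 genes higher and 1241 lower (1233 and 1216 outside the known lists). Dropping the condition on the median gave 1126 and 1047 (920 and 1027 outside), a 1.5-fold rule 1168 and 1100 (932 and 1073), and a 3-fold rule 248 and 123 (116 and 119). Lhx9-positive cells alone, with 3 mitotic-low cells, gave 1364 higher and 650 lower (1166 and 632 outside the known lists). Lhx9-negative cells alone gave 692 lower, with 628 higher and 671 lower outside the known lists. In Lhx9-positive cells alone the epicardial level differed by -0.44 and the septum transversum level by 1.04. There the log2 ratio was 1.72 for Tshz2 and 0.25 for Ntrk3, and at least 0.86 for Tns1, 2.24 for Dkk1 and 1.46 for Nkain4, whose 3 mitotic-low cells had 0 counts and stand at a floor of 3 counts over the group. All were lower over all cells; the cause was not tested. No scaling setting reversed a named gene. Thinning every cell to 354002 counts left 30 mitotic-high and 10 mitotic-low cells, of which 29 and 10 were in the same group before, with medians of 9015.5 and 8508 genes.

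With 12 mitotic-low cells from an unstated number of embryos, ratios of genes detected in few cells are weak, and 1 cell can carry a mean. The Lhx9-positive comparison rests on 3 mitotic-low cells of lower median depth.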

Other observations

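Some of the most abundant genes outside the known lists that passed the rule are described, picked after their values were seen. Frmd4b, a scaffold protein of the FERM family, had 14.2, 165 and 518 CPM in the lowest, median and highest mitotic-high cell. In mitotic-low cells it had 0, 27.4 and 267 CPM. The ratio for Frmd4b was 2.64 over all cells, 2.08 in Lhx9-negative and 1.26 in Lhx9-positive cells. Igfbp3, a binding protein for insulin-like growth factors, averaged 223 ± 287 CPM in mitotic-high and 98.7 ± 188 CPM in mitotic-low cells. The ratio for Igfbp3 was 2.26 over all cells, 1.33 in Lhx9-negative and 4.61 in Lhx9-positive cells. On the lower side, Sh3bp1, a GTPase-activating protein for Rac, averaged 108 ± 80.8 CPM in mitotic-high and 237 ± 132 CPM in mitotic-low cells. Its ratio was 0.25 in Lhx9-negative cells, at 59.8 ± 53.2 CPM in mitotic-high and 243 ± 139 CPM in mitotic-low cells. In Lhx9-positive cells the ratio for Sh3bp1 was 0.57. Ackr3, a scavenging receptor for the chemokine CXCL12, averaged 179 ± 213 CPM in mitotic-high and 398 ± 326 CPM in mitotic-low cells. Its ratio in Lhx9-negative cells was 0.77. In Lhx9-positive cells Ackr3 had the opposite sign, at 93.4 CPM in mitotic-high and 0 CPM in mitotic-low cells.

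The most abundant lower gene was Gm28437, annotated as an unprocessed pseudogene on chromosome 1, at 357 ± 442 CPM in mitotic-high and 951 ± 970 CPM in mitotic-low cells. It may share reads with a near-identical copy. The 13 genes encoded in mitochondria held 0 called, with a level of 9.52 ± 0.47 in mitotic-high and 9.65 ± 0.66 in mitotic-low cells.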
